A study of Mus musculus with 9 samples.

Results

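The unfolded protein response and the integrated stress response were followed in the mouse retina 2 days after laser treatment. This was done through 10 genes, chosen by name from 48679 names in the table. The choice was made with earlier results of these data known, so counts over the 10 genes beside those over all genes are a description. A first group of 5, written here as the ATF4-CHOP genes, were Atf4, Ddit3, Trib3, Chac1 and Asns. A second group of 5, written as the ER chaperone and ERAD genes, were Hspa5, Xbp1, Derl3, Sdf2l1 and Creld2. All 10 had counts in every sample and all 10 passed the filter on low counts in every comparison. RNA of whole retinas was sequenced in 9 samples, each a pool of 6 retinas of C57BL/6J mice 12 weeks old, so n counts pools and not mice. In RVO eyes (n = 3) all veins were occluded by laser after an injection of eosin Y, a dye that sensitizes tissue to light. In control eyes (n = 3), which were the fellow eyes of these mice, the same scheme of laser sites was placed between the large vessels after the same injection. Untreated eyes (n = 3) came from other mice that were left untreated, so effects of the dye and of the laser cannot be told apart in comparisons with them. In the paper these mice are the group at the start of the time course. Anesthesia for the laser and day of collection therefore differed as well and cannot be told apart from treatment.

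Proteins that enter the secretory pathway are folded in the endoplasmic reticulum (ER). When unfolded proteins collect there, the sensors PERK, IRE1 and ATF6 start the unfolded protein response. PERK phosphorylates the translation factor eIF2 alpha, which lowers protein synthesis in general but lets the transcription factor ATF4 be made. The same step is used by the kinases GCN2, PKR and HRI, which sense lack of amino acids, double-stranded RNA and lack of heme, and this wider pathway is the integrated stress response. ATF4 and its target CHOP, encoded by Ddit3, switch on genes of amino acid supply, redox balance and cell death. IRE1 splices the Xbp1 mRNA, and spliced XBP1 together with cleaved ATF6 raises chaperones, enzymes of folding and the machinery of ER-associated degradation (ERAD), which returns misfolded proteins to the cytosol for destruction. ATF4 is controlled largely at translation and XBP1 by splicing, so counts per gene show the mRNA level of both but not the active protein.

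The sites through which these factors act have known sequences, so the promoters of the genes were read first. RefSeq promoter windows on GRCm38.p6, 250 bases before to 50 bases after the start, were found for 10 of 10 genes and searched on both strands. The ER stress response element (ERSE, CCAAT and CCACG with 9 bases of any kind between them) binds ATF6 together with NF-Y, and the C/EBP-ATF response element (CARE, TGATG and AA with 1 base between them) binds ATF4 with a C/EBP partner. ERSE-II (ATTGG and CCACG with 1 base between them) and the unfolded protein response element (UPRE, TGACGTGG) were searched as well, and both share the letters CCACG or their complement with ERSE. The ERSE was present in Hspa5, Derl3 and Creld2 and the CARE in Trib3, Chac1 and Asns, so each element occurred in 3 of 5 genes of one group and in 0 of 5 of the other. No window of the 10 held ERSE-II or UPRE, and Atf4, Ddit3, Xbp1 and Sdf2l1 held none of the 4 elements. Of 32851 promoter windows of this length, 39 (0.119%) held the ERSE, 12 (0.0365%) held ERSE-II, 222 (0.676%) held UPRE and 1304 (3.97%) held the CARE. A match is a run of letters and was not tested for binding.

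The 3 windows with an ERSE are shown 5′ to 3′ on the strand of the gene, with the element in capitals, because the spacing between its outer parts defines the element. They are at chr2:34771840-34772139, plus strand (Hspa5), at chr10:75893148-75893447, plus strand (Derl3) and at chr15:88819396-88819695, plus strand (Creld2).
Hspa5: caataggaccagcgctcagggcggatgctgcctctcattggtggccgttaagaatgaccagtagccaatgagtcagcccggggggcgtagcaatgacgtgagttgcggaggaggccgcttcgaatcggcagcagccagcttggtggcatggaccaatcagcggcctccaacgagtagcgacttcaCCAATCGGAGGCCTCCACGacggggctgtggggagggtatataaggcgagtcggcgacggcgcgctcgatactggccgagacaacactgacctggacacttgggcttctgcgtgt
Derl3: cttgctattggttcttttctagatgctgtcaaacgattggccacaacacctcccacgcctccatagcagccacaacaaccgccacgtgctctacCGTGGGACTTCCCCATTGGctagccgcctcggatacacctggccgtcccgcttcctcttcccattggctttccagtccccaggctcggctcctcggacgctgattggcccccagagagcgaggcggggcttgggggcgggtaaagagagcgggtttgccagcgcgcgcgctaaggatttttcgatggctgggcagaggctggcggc
Creld2: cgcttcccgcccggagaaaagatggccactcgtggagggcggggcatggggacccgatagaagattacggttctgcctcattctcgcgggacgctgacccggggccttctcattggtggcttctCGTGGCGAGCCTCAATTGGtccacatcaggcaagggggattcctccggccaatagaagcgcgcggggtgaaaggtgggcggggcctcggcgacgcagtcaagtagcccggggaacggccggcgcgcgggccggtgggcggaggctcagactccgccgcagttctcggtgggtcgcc
The 3 windows with a CARE are at chr2:152344011-152344310, minus strand (Trib3), at chr2:119350992-119351291, plus strand (Chac1) and at chr6:7693160-7693459, minus strand (Asns), with the element in capitals.
Trib3: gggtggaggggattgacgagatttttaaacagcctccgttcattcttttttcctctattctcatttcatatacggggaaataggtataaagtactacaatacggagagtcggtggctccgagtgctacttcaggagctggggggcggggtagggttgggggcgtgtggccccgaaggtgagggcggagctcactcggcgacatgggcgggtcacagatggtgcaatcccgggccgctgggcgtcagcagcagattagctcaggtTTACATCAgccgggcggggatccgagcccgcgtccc
Chac1: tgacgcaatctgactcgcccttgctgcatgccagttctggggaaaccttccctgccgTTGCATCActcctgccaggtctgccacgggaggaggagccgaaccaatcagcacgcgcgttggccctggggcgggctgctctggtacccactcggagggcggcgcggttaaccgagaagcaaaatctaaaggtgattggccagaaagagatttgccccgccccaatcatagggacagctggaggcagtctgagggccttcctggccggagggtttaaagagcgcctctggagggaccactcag
Asns: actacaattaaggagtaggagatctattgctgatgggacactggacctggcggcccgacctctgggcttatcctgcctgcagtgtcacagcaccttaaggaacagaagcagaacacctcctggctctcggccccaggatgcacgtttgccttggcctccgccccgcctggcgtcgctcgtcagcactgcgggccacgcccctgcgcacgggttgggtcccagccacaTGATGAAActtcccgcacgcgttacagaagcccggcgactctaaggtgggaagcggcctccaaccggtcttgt
The ERSE began 65 bases before the start in Hspa5, in the direction of the gene. In Derl3 and Creld2 it lay on the opposite strand, from 156 to 138 and from 126 to 108 bases before the start. The CARE of Asns lay from 23 to 16 bases before the start, and that of Chac1 from 193 to 186 bases before it on the opposite strand. In Trib3 it lay within the transcribed part, at positions 15 to 22 after the start.

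**Figure D1:**
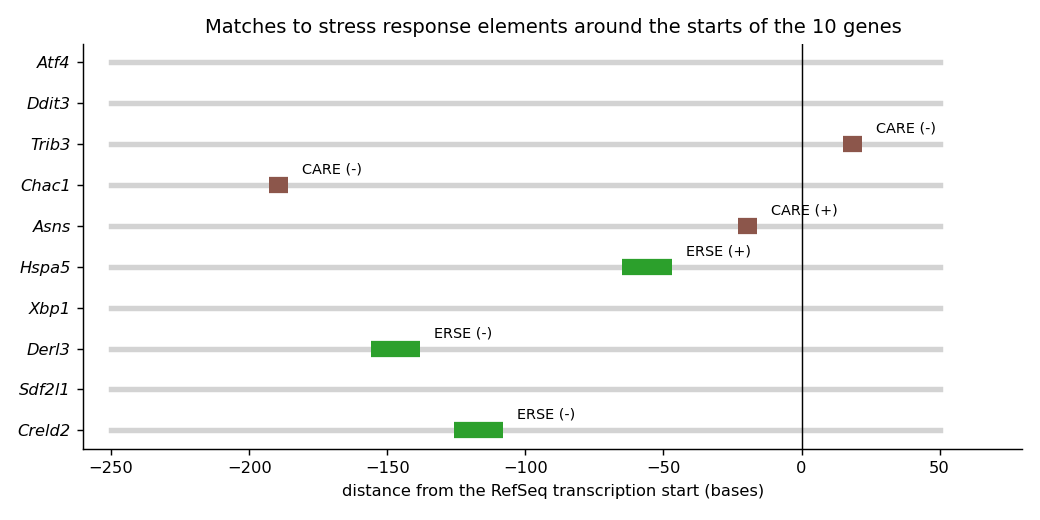
Position of each match to the ERSE (green) and the CARE (brown) relative to the RefSeq transcription start, in bases, with the strand relative to the gene in brackets. The ERSE is seen in Hspa5, Derl3 and Creld2 and the CARE in Trib3, Chac1 and Asns.

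Genes with these elements were then counted over the whole table. Of 16 other genes with an ERSE that were tested between RVO and untreated retinas, 3 (18.8%) were higher and 0 lower, and of 319 other genes with a CARE 86 (27%) were higher and 79 lower. For ERSE-II 5 of 8 genes (62.5%) were higher and 2 lower, and for UPRE 35 of 120 (29.2%) were higher and 27 lower. Of all 16380 genes tested, 27.4% were higher and 24.6% were lower (edgeR's quasi-likelihood test, p adjusted by the Benjamini-Hochberg method and under 0.01), and genes under this threshold are called higher or lower in the following. For the CARE and UPRE the share of higher genes was close to that of all genes, and for the ERSE and ERSE-II the counts were too small to be read against it.

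Library totals were 21022997 to 28993921 in RVO retinas, 18897218 to 23419497 in control retinas and 12377572 to 15245869 in untreated retinas. The 10 genes took 10584 to 13706 counts in untreated, 22074 to 26473 in control and 36270 to 96218 in RVO samples. Retinal identity was seen in all samples, with summed cone markers (Opn1sw, Arr3, Gnat2 and Pde6h) between 314 and 1220 CPM and summed Mueller cell markers (Rlbp1, Glul, Slc1a3 and Aqp4) between 1130 and 3660 CPM, where CPM are counts scaled to the library size. RVO replicate 2 stood apart from the other RVO samples: it had the highest sum of 5 lens markers, 3770 CPM against 124 and 299 CPM, the highest sum of 4 retinal ganglion cell markers, 438 CPM against 187 and 244 CPM, and the lowest sum of 4 neutrophil markers, 40.8 CPM against 87.1 and 93.8 CPM. Between RVO and control retinas, where the calls depended on this sample, the values of the 10 genes are given with and without it. Normalized counts are given as CPM, scaled by edgeR's TMM factors.

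The ATF4-CHOP genes were higher in RVO than in untreated retinas in 5 of 5 cases, with a median log2 fold change of 1.45, against a median of 0.01 over all genes tested. Atf4, the transcription factor that heads the branch (chr15:80255184-80257541, plus strand, build GRCm38), had 827, 459 and 716 CPM in the RVO samples, 392, 370 and 393 CPM in the control samples and 367, 363 and 403 CPM in the untreated samples. Control and untreated values overlapped, and each RVO value lay above both. RVO and untreated retinas differed by a log2 fold change of 0.85 (standard error, SE, 0.19, edgeR's Benjamini-Hochberg adjusted p = 0.00438). Ddit3 (chr10:127290774-127296288, plus strand), which encodes CHOP, had 210, 107 and 171 CPM in RVO, 77.0, 71.1 and 72.0 CPM in control and 61.9, 59.7 and 61.6 CPM in untreated samples. The 3 groups did not overlap and stood in this order. Its level in RVO retinas was 2.72 times that in untreated retinas (log2 1.45, SE 0.21, adjusted p = 0.000546). Ddit3 shares 68 exonic bases with Mars and 13 with Gm4189 on the opposite strand and 105 with a shorter gene model of the same name. Whether counting used the strand is not given in the sources used here, so a small part of its counts is uncertain.

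Trib3 (chr2:152337422-152344032, minus strand), a pseudokinase that is induced by CHOP and ATF4 and restrains AKT signalling, had 40.7, 20.0 and 29.5 CPM in RVO, 17.3, 13.3 and 13.2 CPM in control and 6.45, 7.66 and 8.36 CPM in untreated samples. Its 3 groups did not overlap, and its log2 fold change of 2.03 between RVO and untreated retinas was the largest of the 5 (SE 0.26, edgeR's adjusted p = 0.000261). Chac1 (chr2:119351229-119354381, plus strand), an enzyme that degrades glutathione, had 28.3, 14.7 and 18.4 CPM in RVO, 10.8, 6.98 and 7.50 CPM in control and 6.82, 6.33 and 6.72 CPM in untreated samples. The lowest control sample was close to the highest untreated sample, whereas RVO samples were apart from both. The log2 fold change of Chac1 between RVO and untreated retinas was 1.67 (SE 0.24, adjusted p = 0.000526). Asns (chr6:7675169-7693254, minus strand), asparagine synthetase, had 113, 76.5 and 87.4 CPM in RVO, 72.3, 66.7 and 58.4 CPM in control and 68.6, 63.2 and 61.9 CPM in untreated samples. It showed the smallest difference of the 10, with RVO replicate 2 just above the highest control sample. Its difference between RVO and untreated retinas was 0.55 on the log2 scale (SE 0.14, adjusted p = 0.00851).

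The calls of Atf4 and Asns depended on the samples present, and they stayed without RVO replicate 1 or 2. Without RVO replicate 3, or without any 1 of the untreated samples, 3 of the 5 ATF4-CHOP genes were higher at the threshold instead of 5, with adjusted p-values from 0.0167 to 0.0237 for Atf4 and from 0.0182 to 0.0396 for Asns (edgeR). Over all genes tested, 3298 to 3679 were higher in these 4 fits, against 4492 with all samples. Ddit3, Trib3 and Chac1 were past the threshold with every sample left out in turn. Without RVO replicate 2, all 10 genes of both groups were higher.

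The ER chaperone and ERAD genes were also higher in RVO than in untreated retinas in 5 of 5 cases, with a median log2 fold change of 1.72. Hspa5 (chr2:34771970-34777547, plus strand) encodes BiP, the main HSP70 chaperone of the ER, which also holds the 3 sensors inactive. It had 1492, 658 and 1033 CPM in RVO, 434, 440 and 417 CPM in control and 335, 336 and 320 CPM in untreated samples. Within control and untreated retinas its values were close together, and all groups were apart. The level in RVO retinas was 3.29 times that in untreated retinas (log2 1.72, SE 0.25, edgeR's Benjamini-Hochberg adjusted p = 0.000543). Xbp1 (chr11:5520659-5525893, plus strand), the transcription factor gene whose mRNA is spliced by IRE1, had 172, 135 and 156 CPM in RVO, 102, 103 and 108 CPM in control and 81.4, 81.1 and 80.1 CPM in untreated samples. The RVO samples were above all others, and the log2 fold change of 0.96 had the smallest SE of the 10 (0.10, adjusted p = 8.79e-05).

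Derl3 (chr10:75893413-75895941, plus strand), a membrane protein of the ERAD channel, was at the lowest level and showed the largest difference. It had 26.1, 4.51 and 17.5 CPM in RVO, 1.63, 1.62 and 1.26 CPM in control and 0.454, 0.391 and 0.786 CPM in untreated samples. These rested on 819, 106 and 398 counts in RVO, 36, 32 and 30 in control and 5, 5 and 11 in untreated samples, so its fold change against untreated retinas was the least precise. The fitted difference was 29.5-fold (log2 4.88, SE 0.76, edgeR's adjusted p = 0.000696), and RVO replicate 2 was closer to the control samples than to the other RVO samples. Sdf2l1 (chr16:17130138-17132383, minus strand), a partner of ER-resident J-domain proteins, had 49.5, 20.0 and 32.4 CPM in RVO, 10.5, 13.7 and 10.1 CPM in control and 4.45, 4.38 and 5.79 CPM in untreated samples. Its 3 groups did not overlap, and RVO exceeded untreated retinas 7.10-fold (log2 2.83, SE 0.34, adjusted p = 0.000186). Creld2 (chr15:88819646-88826683, plus strand), an ER protein with epidermal growth factor-like repeats that is made under ER stress, had 110, 47.1 and 77.5 CPM in RVO, 30.6, 30.4 and 28.5 CPM in control and 29.9, 31.8 and 31.0 CPM in untreated samples. Control and untreated values were intermixed, and RVO values were all higher (log2 1.37, SE 0.27, adjusted p = 0.00221). Without any 1 of the untreated samples the adjusted p of Creld2 was between 0.0117 and 0.0143.

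**Figure D2:**
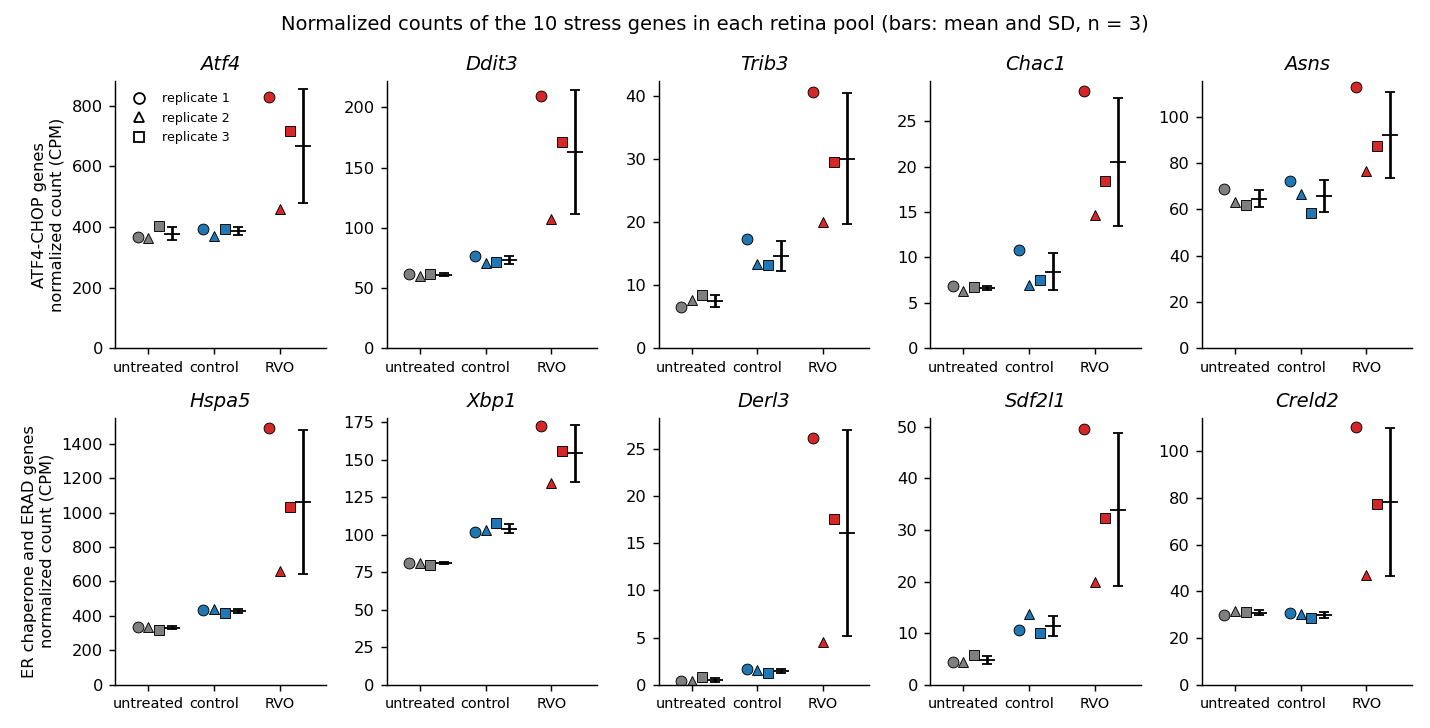
Normalized counts (CPM, axes from 0) of the 10 genes in each retina pool, with replicates 1, 2 and 3 as circle, triangle and square and the mean ± SD of each group beside them (n = 3). In every panel the 3 RVO samples lie above all control and untreated samples, in the order replicate 1, 3 and 2.

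In both groups of genes, no RVO sample overlapped with an untreated sample, which held for 10 of 10 genes. Of all genes tested between RVO and untreated retinas, 35.9% had all RVO samples above the untreated samples and 37.5% had all below. In each of the 10 genes, replicate 1 was highest and replicate 2 lowest among RVO samples. This order was found in 23.8% of 16380 genes tested and in 40.4% of the 4492 genes that were higher in RVO than in untreated retinas, so it was more frequent among genes that rose but not general. In a pool of whole retinas, fewer cells of a type and less RNA per cell cannot be told apart, and likewise a rise of a gene in resident cells and its arrival with other cells.

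Levels of different genes were compared as CPM per kb of exonic length. In untreated retinas the order was led by Atf4 at 160 ± 9.36 CPM per kb (SD, n = 3), followed by Hspa5 at 78.1 ± 2.03 and Ddit3 at 35.7 ± 0.682 CPM per kb. Xbp1 (24.9 CPM per kb), Asns (23.6) and Creld2 (22.6) came next and were neighbours whose samples overlapped. Sdf2l1 (4.40 CPM per kb), Chac1 (4.05) and Trib3 (3.53) overlapped in the same way, each with the next, and Derl3 was lowest at 0.273 ± 0.106 CPM per kb. In RVO retinas Atf4, at 283 ± 80.2 CPM per kb, and Hspa5, at 251 ± 98.7 CPM per kb, overlapped. Hspa5 thus lay below Atf4 in all untreated samples, whereas in RVO samples it spanned 155.6 to 352.7 CPM per kb and Atf4 194.6 to 350.9 CPM per kb. Both genes had the upper value in RVO replicate 1, where they were about level, and the lower value in replicate 2. Within replicates 2 and 3 Hspa5 was still below Atf4, so the overlap reflects the spread between pools.

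Control laser treatment between the vessels separated the genes. Between control and untreated retinas, 2 of 5 ATF4-CHOP genes (Ddit3 and Trib3) and 4 of 5 ER chaperone and ERAD genes (Hspa5, Xbp1, Derl3 and Sdf2l1) were higher, and 0 were lower, where 27.2% of 16066 genes tested were higher and 25.2% were lower. Trib3 was 1.96-fold higher (log2 0.97, SE 0.14, edgeR's Benjamini-Hochberg adjusted p = 4.97e-05), whereas Ddit3 was 1.22-fold higher (log2 0.28, SE 0.06, adjusted p = 0.000714). In the other group of genes Derl3 (log2 1.44, SE 0.33, adjusted p = 0.00184) and Sdf2l1 (log2 1.23, SE 0.16, adjusted p = 2.63e-05) had larger values than Hspa5 (log2 0.40, SE 0.05, adjusted p = 3.29e-05) and Xbp1 (log2 0.38, SE 0.05, adjusted p = 2.69e-05). The remaining genes except Chac1 were at about the untreated level, with log2 fold changes of 0.05 for Atf4 (SE 0.06, adjusted p = 0.516), 0.05 for Asns (SE 0.08, adjusted p = 0.614) and -0.03 for Creld2 (SE 0.07, adjusted p = 0.695). Chac1 had a log2 fold change of 0.37 that did not pass the test (SE 0.17, adjusted p = 0.0689). Groups did not overlap for 3 of 5 ATF4-CHOP genes and 4 of 5 ER chaperone and ERAD genes, all with control above, where 34.6% of all genes tested had control above and 35.4% had it below. In a fit of all 9 samples, in which the wider spread of the RVO samples enters, 3 genes instead of 6 were past the threshold, and Ddit3 (adjusted p = 0.258), Hspa5 (0.163) and Derl3 (0.17) were not. With library sizes as the only scaling, the median over all genes tested was 0.19 instead of 0.01 on the log2 scale, Atf4 passed the test (0.22, adjusted p = 0.00749) and the value of Creld2 changed sign (0.14, adjusted p = 0.132).

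The part of the RVO difference that was already present after control laser treatment varied accordingly. Relative to untreated retinas and on the log2 scale of CPM, the control mean reached 49.2% of the RVO mean for Trib3, 45.2% for Sdf2l1, 39.4% for Xbp1 and 33% for Derl3. For Hspa5, Chac1 and Ddit3 it was 23.7%, 20.4% and 19.3%, and for Asns, Atf4 and Creld2 it was 4.75%, 3.68% and -4.16%. Both numbers share the untreated samples, so these shares are a description and were not tested. Each group of genes had members at either end of this order.

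RVO was then compared with control laser treatment, where both groups had received dye and laser. The laser was aimed at the veins in RVO eyes and between the large vessels in control eyes. Occlusion and direct laser damage to the veins therefore cannot be told apart in this comparison. All 3 RVO samples lay above all 3 control samples for 10 of 10 genes, where this held for 26.7% of 16874 genes tested and the opposite for 25.8%. At an adjusted p under 0.01, 0 of the 10 genes passed the test (edgeR), where 2.7% of all genes tested were higher and 0.634% were lower. At an adjusted p under 0.05, 10 of 10 were higher, where 17.5% of all genes were higher and 17.1% were lower. An unadjusted p under 0.05 was found for 10 of 10, and for 7940 of all 16874 genes in either direction. With DESeq2, 9 of 10 were past 0.01, the exception being Asns, and 9 were also called in the fit of all 9 samples and in the fit without a filter on low counts. Over all genes tested, 1881 of 16918 were higher and 2162 lower with DESeq2. These numbers were 1832 and 2021 of 17112 in the fit of all 9 samples and 1569 and 1740 of 29742 without the filter. Without RVO replicate 2 all 10 were past 0.01, and with any other RVO or control sample left out 0 were. Calls over all genes moved likewise, with 2942 of 17199 higher and 3315 lower without RVO replicate 2. With any other of these samples left out, 0 to 29 of all genes tested were higher and 0 were lower. The counts of calls between RVO and control retinas thus changed with RVO replicate 2 and with the method, as those over all genes did. The direction of the 10 genes was the same in each of these fits.

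The largest difference between RVO and control retinas was that of Derl3, at 10.8-fold (log2 3.43, SE 0.62, edgeR's Benjamini-Hochberg adjusted p = 0.0119). Sdf2l1 (log2 1.58, SE 0.31, adjusted p = 0.0133), Creld2 (1.40, 0.27, adjusted p = 0.0131) and Hspa5 (1.31, 0.26, adjusted p = 0.0133) followed. Chac1 (1.29, SE 0.27, adjusted p = 0.015), Ddit3 (1.15, 0.22, adjusted p = 0.0127) and Trib3 (1.05, 0.25, adjusted p = 0.02) came next. Smaller differences were found for Atf4 (0.80, SE 0.20, adjusted p = 0.0207), Xbp1 (0.57, 0.10, adjusted p = 0.0108) and Asns (0.49, 0.15, adjusted p = 0.0409). Without RVO replicate 2 each of these values was larger, at 3.85 for Derl3 (adjusted p = 3.44e-06), 1.83 for Sdf2l1 (4.9e-05), 1.64 for Creld2 (1.42e-05), 1.54 for Hspa5 (2.18e-05) and 0.64 for Xbp1 (4.79e-05). In the ATF4-CHOP genes it was 1.46 for Chac1 (adjusted p = 0.000455), 1.36 for Ddit3 (5.56e-06), 1.25 for Trib3 (0.000172), 0.99 for Atf4 (1.49e-05) and 0.59 for Asns (0.00251). For Creld2 the difference from control retinas was as large as that from untreated retinas, whereas for Sdf2l1 and Trib3 it was smaller.

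**Figure D3:**
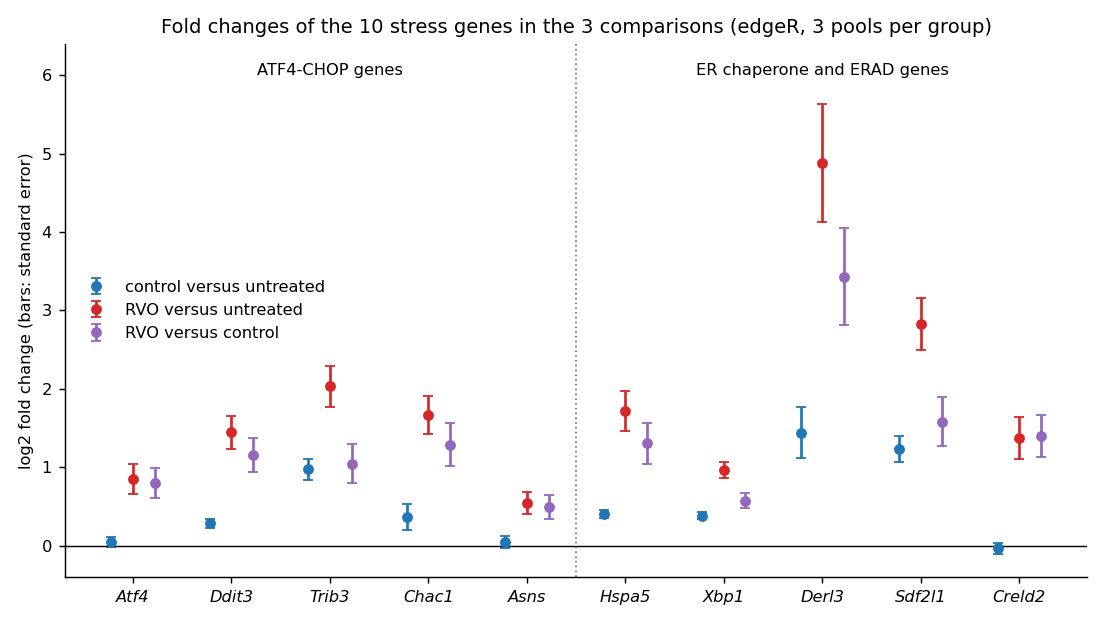
Log2 fold changes with SE (edgeR, 3 pools per group) of the 10 genes for control versus untreated (blue), RVO versus untreated (red) and RVO versus control (purple). Atf4, Asns and Creld2 are close to 0 in control retinas, and Derl3 has the largest values in all comparisons.

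The 2 groups of genes were set side by side in each sample, as the mean over 5 genes of the log2 CPM minus the mean of the untreated samples. The ATF4-CHOP genes were at 1.652, 0.784 and 1.262 in RVO replicates 1, 2 and 3 and at 0.50, 0.23 and 0.23 in control replicates 1, 2 and 3. The ER chaperone and ERAD genes were at 2.822, 1.501 and 2.348 in the RVO and at 0.70, 0.78 and 0.59 in the control samples. Both groups ranked the RVO samples alike, and the second group was the higher in each of these 6 samples. The difference between the groups was 1.17, 0.72 and 1.08 in RVO samples, and without Derl3 it was 0.46, 0.31 and 0.40. In control samples it was 0.20, 0.55 and 0.36, and without Derl3 it was -0.04, 0.33 and 0.19. Derl3 alone thus made up the larger part of the distance between the groups in RVO retinas.

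**Figure D4:**
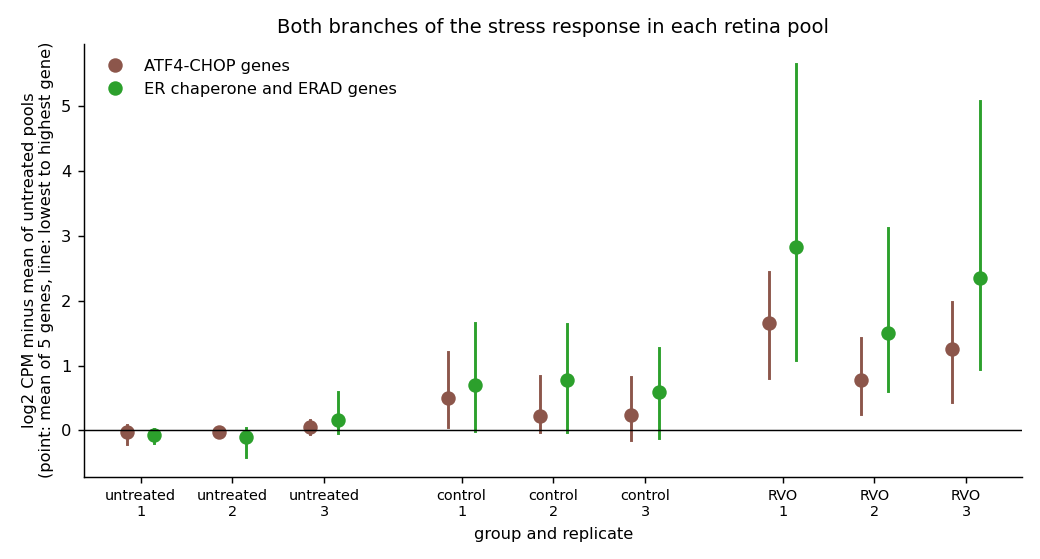
Mean log2 CPM relative to the untreated samples of the 5 ATF4-CHOP genes (brown) and the 5 ER chaperone and ERAD genes (green) in each sample, with lines from the lowest to the highest gene. RVO samples reach 0.784 to 1.652 and 1.501 to 2.822, and control samples 0.23 to 0.50 and 0.59 to 0.78.

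Across the 9 samples the genes of both groups followed one another, as a description over 3 groups of 3 samples that share the group differences. Pearson's r of log2 CPM was between 0.84 and 0.975 among ATF4-CHOP genes (10 pairs, median 0.935), between 0.87 and 0.984 among ER chaperone and ERAD genes (10 pairs, median 0.969) and between 0.841 and 0.995 for pairs across the groups (25 pairs, median 0.946). Without RVO replicate 2 the medians were 0.938, 0.972 and 0.951 over 8 samples. The closest pair of all was Ddit3 and Hspa5, which are in different groups. Among 14974 genes with a mean of at least 1 CPM, those most like Ddit3 were Eepd1 (r = 0.996), Nans (0.996) and Ppp1r15a (0.996). Those most like Hspa5 were Dusp5 (0.996), Ddit3 (0.995) and Srpr (0.995). Ppp1r15a encodes GADD34, which directs the phosphatase that restores eIF2 alpha, Nans is an enzyme of sialic acid synthesis, and Srpr is the receptor of the signal recognition particle at the ER.

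Counts in the further lists of the pathway are to be read against the shares of all genes tested, which were 27.4% higher and 24.6% lower between RVO and untreated retinas, 27.2% and 25.2% between control and untreated retinas and 2.7% and 0.634% between RVO and control retinas. Of 12 sensors and eIF2 regulators, 6 were higher and 1 lower between RVO and untreated retinas, with a median log2 fold change of 0.36. The largest difference was that of Eif2ak2, the kinase PKR (log2 2.69, SE 0.18, edgeR's Benjamini-Hochberg adjusted p = 1.57e-05), which was nearly as high in control retinas (log2 2.36, SE 0.19, adjusted p = 5.59e-07). Eif2ak3, the kinase PERK, was higher in RVO than in untreated retinas (0.80, SE 0.09, adjusted p = 0.000181) and was the 1 gene of the list called between RVO and control retinas (0.62, SE 0.09, adjusted p = 0.00928). Ppp1r15a was higher after RVO (2.02, SE 0.30, adjusted p = 0.000554) and after control laser treatment (0.43, SE 0.10, adjusted p = 0.00305, and 0.0112 to 0.0275 without control replicate 1 or untreated replicate 2 or 3). Atf6b, a relative of ATF6, was higher as well (0.95 in RVO and 0.70 in control retinas). Ern1, the sensor IRE1, and Atf6 itself did not pass the test between RVO and untreated retinas (0.38 with adjusted p = 0.0186 and -0.07 with adjusted p = 0.448). Mbtps2, a protease that cleaves ATF6, was lower (-0.75, adjusted p = 0.000639). Between control and untreated retinas, 3 were higher and 3 lower (Eif2ak1, Atf6 and Mbtps2), the latter named after their values were seen, and with scaling by library size only 4 were higher and 1 lower. Both counts in control retinas were close to the shares of all genes.

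Other effectors linked to ATF4 had the largest median of these lists. Of 12 such genes 11 were tested, of which 10 were higher and 1, Vldlr, was lower between RVO and untreated retinas (median log2 fold change 3.02). In control retinas 8 were higher and 1 lower (median 2.04). Gdf15, a secreted stress cytokine, had 24.0, 6.12 and 12.7 CPM in RVO, 10.05, 1.62 and 1.26 CPM in control and 0.454, 0.313 and 0.357 CPM in untreated samples, on 4 to 5 counts in the latter. Control replicate 1 thus stood apart from the other control samples. The log2 fold change of Gdf15 was 5.28 in RVO retinas (SE 0.65, edgeR's adjusted p = 0.000221, and 4.68 without RVO replicate 1). In control retinas it was 3.53 (SE 0.92, adjusted p = 0.00448), 1.95 without control replicate 1 (adjusted p = 0.000586), and not past the threshold without any 1 of the untreated samples (adjusted p = 0.0187 to 0.0272). Eif4ebp1, an inhibitor of translation, was higher in both (4.61, SE 0.28, adjusted p = 1.04e-05, and 2.68, SE 0.27, adjusted p = 2.89e-06 in control retinas). The transcription factor genes Atf3 (3.54 and 2.16) and Cebpb (3.38 and 2.04) were higher in both groups too. In all, 5 were called between RVO and control retinas: Stc2 (2.07, adjusted p = 0.00977), Eif4ebp1 (1.91, adjusted p = 0.00918), Atf3 (1.37, adjusted p = 0.00989), Cebpb (1.33, adjusted p = 0.006) and Atf5 (0.96, adjusted p = 0.00989). Stc2, stanniocalcin 2, had 35.0, 15.0 and 20.4 CPM in RVO, 6.56, 4.50 and 5.78 CPM in control and 8.45, 6.02 and 7.08 CPM in untreated samples. Its control and untreated samples overlapped, as those of Creld2 did. Several of these genes, such as Atf3 and Cebpb, are also induced by inflammatory signals.

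Genes of amino acid supply, the process served by Asns, were mostly higher. Of 15 genes of amino acid synthesis and transport, 14 were higher and 0 lower between RVO and untreated retinas (median log2 fold change 1.01), and 7 were higher in control retinas (median 0.46). Without untreated replicate 2 the 14 were 9. Phgdh, the first enzyme of serine synthesis, had a log2 fold change of 3.52 (SE 0.28, edgeR's adjusted p = 3.37e-05), Slc7a11, the cystine transporter, of 2.73 (SE 0.13, adjusted p = 3.37e-06), Aldh1l2, a mitochondrial folate enzyme, of 2.62 (SE 0.26, adjusted p = 7.59e-05) and Slc7a3, a transporter of cationic amino acids, of 1.83 (SE 0.24, adjusted p = 0.000328). Phgdh (1.91, adjusted p = 0.00922), Aldh1l2 (1.98, adjusted p = 0.00905) and Slc7a11 (1.89, adjusted p = 0.00672) were also higher in RVO than in control retinas. The aminoacyl-tRNA synthetases, which load amino acids onto tRNA, moved less: 7 of 12 were higher and 0 lower in RVO retinas (median 0.50), led by Tars (1.13), Aars (0.80), Lars (0.67) and Wars (0.64), and all 12 were called without RVO replicate 2. In control retinas 5 were higher and 1, Iars, was lower (2 calls without untreated replicate 2), and 0 were called between RVO and control retinas (edgeR), where 10 were higher at an adjusted p under 0.05, 8 with DESeq2 at 0.01 and all 12 had RVO samples above control samples. The CARE was found in 5 of 8 synthetases with a promoter window (Aars, Gars, Iars, Tars and Yars).

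Of 5 death genes linked to CHOP, 3 were higher between RVO and untreated retinas, a small list of which 2 were higher in each of the other comparisons. They were Bbc3, which encodes PUMA (log2 2.97, SE 0.24, edgeR's adjusted p = 3.35e-05), Tnfrsf10b, a death receptor (1.65, SE 0.29, adjusted p = 0.00136), and Bcl2l11, which encodes BIM (0.91, SE 0.10, adjusted p = 0.00011). Pmaip1 (1.06, adjusted p = 0.0305) and Casp12 (0.99, adjusted p = 0.103) did not pass the test. Bbc3 (1.20, adjusted p = 0.00758) and Bcl2l11 (0.55, adjusted p = 0.0098) were higher in RVO than in control retinas, and both were higher in control than in untreated retinas (1.76 and 0.35). The control calls became 1 without untreated replicate 1 or 2 or control replicate 1.

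Of 24 other folding genes of the ER, 15 were higher and 0 lower between RVO and untreated retinas (median log2 fold change 0.53), and in control retinas 8 were higher and 5 were lower, near the shares of all genes (median -0.03, with 11 higher and 3 lower when scaled by library size only). Without untreated replicate 3 the 15 were 9. The highest in RVO retinas were Fkbp11, a prolyl isomerase of secretory cells (3.02, SE 0.51, edgeR's adjusted p = 0.00112), Pdia6 (1.62, SE 0.15, adjusted p = 6.73e-05) and P4hb (1.29, SE 0.12, adjusted p = 5.8e-05), both protein disulfide isomerases, and Ero1l, the oxidase that recharges them (1.27, SE 0.23, adjusted p = 0.00166, and 0.0115 and 0.0118 without untreated replicate 1 or 3). P4hb (0.82, adjusted p = 0.00929) and Ppib, a cyclophilin of the ER (0.55, adjusted p = 0.00928), were called between RVO and control retinas. The 5 genes lower in control retinas were Dnajb9, Hsp90b1, Dnajc3, Cdnf and Ero1lb, named after their values were seen. Dnajb9, a co-chaperone of BiP, had 69.7, 33.6 and 55.2 CPM in RVO, 25.3, 25.6 and 22.6 CPM in control and 52.4, 51.3 and 43.1 CPM in untreated samples. It fell by 0.98 on the log2 scale in control retinas (SE 0.09, edgeR's adjusted p = 1.38e-06), and RVO samples overlapped with untreated ones (0.14, SE 0.24, adjusted p = 0.605). Hsp90b1, which encodes the chaperone GRP94, had 1004, 661 and 825 CPM in RVO, 526, 538 and 545 CPM in control and 797, 753 and 684 CPM in untreated samples. It fell by 0.45 in control retinas (SE 0.06, adjusted p = 4.62e-05), so Hspa5 and Hsp90b1, which both hold an ERSE, differed in opposite directions after laser treatment between the vessels. With scaling by library size only, Hspa5 was at 0.57 and Hsp90b1 at -0.28 (adjusted p = 0.00128). The ERSE was found in 6 of 21 of these genes with a window, namely Hsp90b1, Calr, Canx, Dnajc3, Pdia6 and Ero1lb.

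Of 18 other genes of ERAD and translocation, 10 were higher and 3 lower between RVO and untreated retinas (median log2 fold change 0.46), and 8 were higher and 5 lower in control retinas, the latter near the share of all genes (median 0.08, with 10 higher and 3 lower when scaled by library size only, and 8 calls in all without untreated replicate 2). Sec61a1 (1.36, SE 0.12, edgeR's adjusted p = 5.69e-05) and Sec61b (1.12, SE 0.13, adjusted p = 0.000196), subunits of the translocation channel, and Derl1, a relative of Derl3 (0.99, SE 0.08, adjusted p = 4.05e-05), were highest, and Erlec1, a lectin of ERAD, was lower (-1.03, SE 0.09, adjusted p = 3.94e-05). Sec61b was the 1 gene called between RVO and control retinas (0.66, adjusted p = 0.00996). The others lower after RVO were Edem3 (-0.72) and Hspa13 (-0.56), and those lower in control retinas were these 3 together with Sel1l and Ufd1l, named after their values were seen. Derl1 (0.61 in control retinas) and Derl2 (-0.03) showed smaller differences than Derl3. Calls between RVO and control retinas in all 7 lists were 0 when any 1 sample other than RVO replicate 2 was left out, as they were for the 10 genes. In these fits 0 to 29 of all genes tested were higher.

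**Figure D5:**
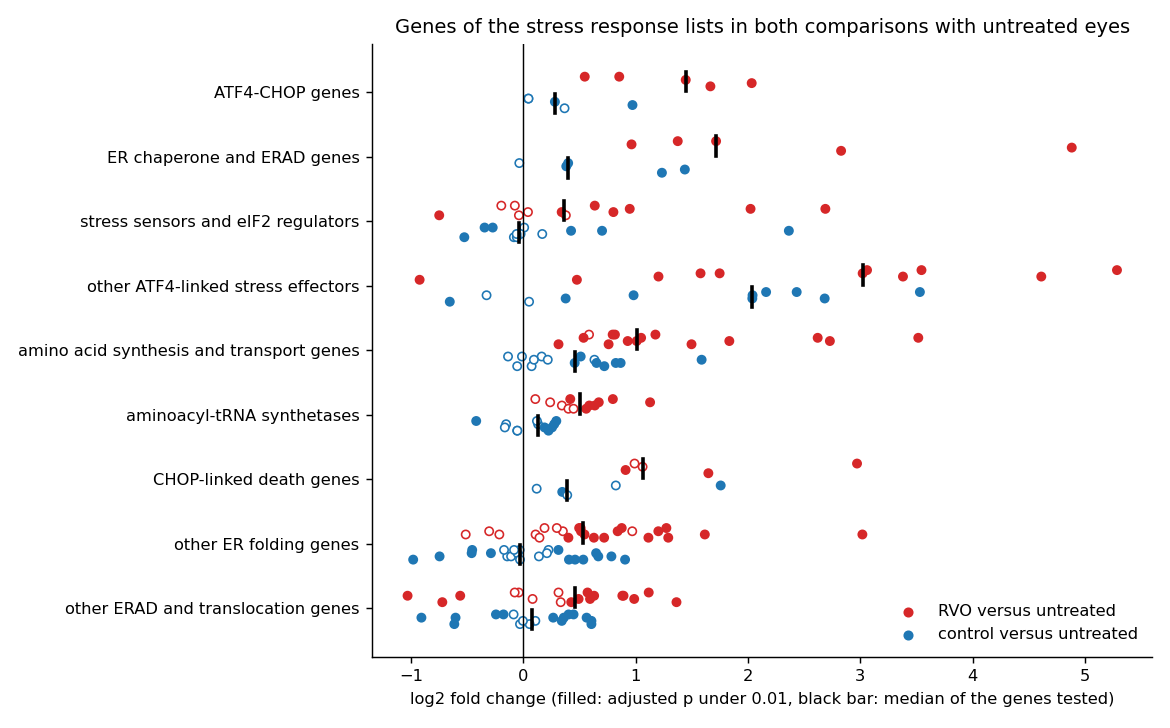
Log2 fold changes between RVO and untreated retinas (red) and between control and untreated retinas (blue) of the 10 genes and of 7 further lists of the stress response, with filled points for an adjusted p under 0.01 (edgeR) and a black bar at the median. Medians of the sensors and of the other ER folding genes in control retinas are close to 0, at -0.04 and -0.03, and those of other ATF4-linked effectors are at 3.02 and 2.04.

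Markers of other cells differed between the same groups of samples. The summed level of 4 neutrophil markers was 40.8 to 93.8 CPM in RVO, 7.41 to 21.6 CPM in control and 0.469 to 1.18 CPM in untreated samples, and that of 5 monocyte and macrophage markers was 99.4 to 119, 40.5 to 56.6 and 11.2 to 13.8 CPM. The 4 fibroblast markers summed to 32.6 to 39.4, 14.3 to 19 and 7.43 to 9.72 CPM. In RVO retinas 3 of 4 cone, 3 of 4 Mueller cell and 4 of 4 retinal ganglion cell markers were lower than in untreated retinas. Cone markers summed to 314 to 524, 698 to 959 and 1140 to 1220 CPM in RVO, control and untreated samples, Mueller cell markers to 1130 to 1510, 1690 to 2360 and 3420 to 3660 CPM, and retinal ganglion cell markers to 187 to 438, 676 to 715 and 828 to 866 CPM. Members of these sums differed. Of 4 cone markers 1, Pde6h, was higher in control retinas, at 141.5 to 161.9 CPM against 100.5 to 126 CPM in untreated samples. Glul made up most of the Mueller cell sum in untreated samples, at 2507 to 2679 CPM. Slc1a3 was at 124.6 to 237.5 CPM in RVO, 278.2 to 316 CPM in control and 247.9 to 277.4 CPM in untreated samples. Endothelial markers summed to 29.2 to 35, 37.3 to 46.6 and 18.1 to 20 CPM. Among them Cldn5 was at 2.78 to 9.01 CPM in RVO, 13.1 to 19.7 CPM in control and 3.45 to 5.58 CPM in untreated samples. Pecam1 and Cdh5 overlapped between RVO and control samples. Pigment epithelium markers summed to 288 to 487, 389 to 475 and 427 to 472 CPM. These sums rested mostly on Ttr and Rgr. Against untreated retinas, 1 of 4 pigment epithelium markers was lower in RVO and 2 in control retinas, and 0 were higher. Rpe65 was at 15.5 to 34.6 CPM in RVO, 33.9 to 47.7 CPM in control and 57.9 to 61.4 CPM in untreated samples. Lens markers summed to 124 to 3770 CPM in RVO, 142 to 2070 CPM in control and 2.22 to 20.1 CPM in untreated samples. Among RVO samples their order was the reverse of that of the 10 genes, with Cryaa at 104, 2616 and 200 CPM in replicates 1, 2 and 3. In control replicates 1, 2 and 3 Cryaa was at 1600, 165 and 114 CPM. The mean of the ATF4-CHOP genes was also highest in control replicate 1, and that of the ER chaperone and ERAD genes in control replicate 2. The part of these cells in the stress genes was not tested. Derl3, Sdf2l1, Creld2 and Fkbp11 are known for high levels in plasma cells, and 5 plasma cell markers summed to 19.6 to 21.5 CPM in RVO, 19.1 to 22.2 CPM in control and 19.2 to 21.4 CPM in untreated samples. Of these, Mzb1 had at most 12 counts, Pou2af1 at most 9 and Tnfrsf17 at most 2 counts in any sample, whereas Sdc1, which epithelia also express, was 7.84 to 9.38 CPM in RVO and 0.313 to 0.727 CPM in untreated samples. Jchain, which made up most of the sum, went the other way, at 11.2 to 12.8 CPM in RVO, 16.5 to 19.5 CPM in control and 18.3 to 20.8 CPM in untreated samples, so the even sums hide opposite differences.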

How the data were processed

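RNA of 9 retina pools was prepared with a stranded mRNA kit. The authors mapped reads to the mouse genome with STAR 2.5.2b using the Gencode vM11 annotation and counted them per gene with featureCounts of Subread 1.5.1, per the labels and the methods of the study, and deposited raw counts by gene symbol. The treatment of strand and of reads matching several genes is not given in the sources used here, so counts of overlapping or duplicated genes are uncertain. Of 48679 names, 92 were spike-in controls without counts, and 46372 matched 1 gene of GENCODE vM21, which gave coordinates on GRCm38. The number of columns not used was 0.

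Each pair of groups was fitted to the deposited counts with edgeR 4.0.16 (R 4.3.3): filterByExpr, TMM factors (0.89 to 1.08), quasi-likelihood test, Benjamini-Hochberg adjustment over all genes tested, threshold 0.01. Standard errors are the log2 fold change divided by the root of the F statistic. CPM were scaled with TMM factors over all 9 samples. In both groups of genes, log2 CPM relative to untreated samples, the shares and the correlations among these genes used no offset. An offset of 0.5 was added in the search for genes most like Ddit3 and Hspa5 and in the deviations of replicates. Replicates were separate pools and differed by more than sampling noise (chi-square per degree of freedom 3.15 to 54.1), and p-values measure the spread between pools. Alternatives were DESeq2 1.42.0, other scaling, no filter, a fit of all 9 samples, a replicate block, a threshold of 0.05 and each sample left out. On simulated counts of 16655 genes for RVO versus control, 60 of 98 2-fold changes (61.2%) and 82 of 96 4-fold changes (85.4%) were recovered with 6 false calls. There few genes changed and all samples had the same spread per gene. In the data 7940 genes had an unadjusted p under 0.05 and RVO replicate 2 stood apart, so these shares cannot be carried over to them.

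The 10 genes, the 7 further lists and the marker lists were chosen with earlier results of these data known. Named are all 10 genes and, per list, up to 4 called genes of the largest change between RVO and untreated eyes and any gene called between RVO and control eyes. For Ddit3 and Hspa5 the 3 genes of the most similar pattern are also named, and genes outside this rule, such as those not past the threshold, were chosen after their values were seen. Marker lists were those of cones, Mueller cells, retinal ganglion cells, endothelial cells, monocytes and macrophages, neutrophils, plasma cells, lens, pigment epithelium and fibroblasts, and 1 further list is not reported here.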

Additional observations from a re-analysis of the deposited data

How the results depend on the processing

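For the 10 genes, the log2 fold change between RVO and untreated retinas and between RVO and control retinas kept its sign under all alternatives run. Between control and untreated retinas the sign changed for Asns (-0.020 to 0.13 with 1 sample left out) and for Creld2 (0.14 with scaling by library size only, and -0.071 to 0.00096 with 1 sample left out). Between RVO and untreated retinas, 3 to 5 ATF4-CHOP genes and 4 to 5 ER chaperone and ERAD genes were called with 1 sample left out, as were 9 to 15 amino acid genes, 5 to 12 synthetases and 9 to 19 other ER folding genes. Between control and untreated retinas the fit of all 9 samples gave 1 ATF4-CHOP gene, 2 ER chaperone and ERAD genes, 0 synthetases, 1 death gene and 8 ERAD and translocation genes, DESeq2 gave 1 death gene, and with 1 sample left out there were 2 to 6 synthetases, 1 to 2 death genes and 8 to 12 ERAD and translocation genes. The cause of these shifts was not tested.

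Between RVO and control retinas the counts of calls moved most. Over all genes tested, 456 were higher in the main fit, 1881 with DESeq2 and 2942 without RVO replicate 2. In the order ATF4-CHOP genes, ER chaperone and ERAD genes, sensors, other effectors, amino acid genes, synthetases, other ER folding genes and other ERAD genes, DESeq2 called 4, 5, 4, 9, 12, 8, 17 and 6. At an adjusted p under 0.05 the numbers were 5, 5, 7, 10, 13, 10, 17 and 9 in the same order, where the 10 other effectors were 9 higher and 1 lower. The fit of all 9 samples called 4 and 5 of the first groups, 5 sensors, 11 amino acid genes, 8 synthetases, 17 ER folding and 6 ERAD genes, and the fit without a filter on low counts called 4, 5, 3, 10, 7, 15 and 4 of the same lists. With RLE size factors, 2 other effectors, 1 death gene and 0 ERAD genes were called, and with scaling by library size only 1 ER chaperone and ERAD gene, 4 other ER folding and 2 other ERAD genes. With 1 sample left out the ranges were 0 to 5 ATF4-CHOP genes, 0 to 5 ER chaperone and ERAD genes, 0 to 7 sensors, 0 to 9 other effectors, 0 to 15 amino acid genes, 0 to 12 synthetases, 0 to 4 death genes, 0 to 16 other ER folding and 0 to 11 other ERAD genes, the upper end always without RVO replicate 2.

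Groups shared replicate numbers, but same-numbered samples did not deviate together. Correlations of their deviations were -0.187, -0.19 and 0.106 between RVO and control, -0.0566, 0.128 and 0.0624 between RVO and untreated and 0.0401, -0.0406 and 0.0951 between control and untreated samples, so the number was not taken as a pairing. Differently numbered RVO and control samples ranged from -0.293 to 0.289. Deviations from means of 3 samples cannot show whether same-numbered RVO and control pools came from the same mice, which the sources used here do not give. With the replicate block, 10 of the 10 genes were called between RVO and untreated retinas, 6 between control and untreated retinas and 0 between RVO and control retinas, and the calls of the sensors, other effectors, amino acid, death, other ER folding and other ERAD genes between RVO and control retinas became 0, as did those of all genes tested (7227 had an unadjusted p under 0.05). Depth limits Derl3, with 5 to 11 counts in untreated samples.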
